A study of Mus musculus with 2 samples.

Results

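The genes of the unfolded protein response, of ATF4 signalling and of tRNA charging were described in mouse EpiSC (epiblast stem cells), a primed pluripotent cell type like the post-implantation epiblast. The set holds 34 genes chosen by symbol, of 22881 named genes on the array. It comprises 14 genes of the unfolded protein and ATF4 response and 20 genes of the cytosolic aminoacyl-tRNA synthetases, which were read by 38 of 39429 probes. EpiSC clone 1 and EpiSC clone 2 were compared, each at passage 9, wildtype, female and on a C57BL/6 genetic background, and 1 array was made per clone. Cells were collected with trypsin, the labels name no further treatment, and 0.2 ug of total RNA went into the Cy3 labelling. Each line is 1 clone, so a difference between them is a difference between these 2 arrays, with no replicate check and no test. Values are processed signal intensities on a log2 scale, set against each array's 75th percentile, and every difference is clone 2 minus clone 1. These are levels in bulk RNA, in which fewer cells of a type and less RNA per cell cannot be told apart.

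The unfolded protein response is set off by misfolded proteins in the endoplasmic reticulum (ER), which are sensed by the membrane proteins PERK (Eif2ak3), IRE1 (Ern1) and ATF6. PERK and other kinases phosphorylate the translation factor eIF2, which lowers protein synthesis in general and raises translation of ATF4. ATF4 is a transcription factor that switches on genes for amino acid synthesis, amino acid transport, tRNA charging and feedback control, in part together with C/EBP proteins. The synthetases attach each amino acid to its tRNA and fall into class I and class II, which have unrelated catalytic folds. ATF4 itself is controlled largely in translation, so the amount of its mRNA is not a measure of its activity.

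The 2 arrays were closely alike, with 63.4% of named genes detected in clone 1 and 63.7% in clone 2. The levels of 13965 genes measured on each array had a Pearson's r of 0.990 between the clones, over genes and not over independent replicates, and those of the 34 genes one of 0.996. All 10 epiblast markers examined, among them Pou5f1, Nanog, Fgf5 and Otx2, were detected in both clones. Of 6 markers of naive pluripotency, Esrrb and Klf4 were detected in both clones, and Zfp42, Dppa3, Nr0b1 and Prdm14 in neither. Fibroblast markers were detected for all 9 genes with a value, with a median difference of 0.13. Their summed signal was 0.0833% of all named genes in clone 1 and 0.0802% in clone 2. That of the 10 epiblast markers was 0.168% and 0.161%. Col1a2, a fibroblast marker, had 4.88 in clone 1 and 5.01 in clone 2. Of 6 macrophage markers, 4 were detected in both clones, with a summed signal of 0.00286% in each. One of them, Csf1r, which encodes a growth factor receptor of macrophages, had -0.35 in clone 1 and 0.48 in clone 2 and was 1.78-fold higher in clone 2, a difference about as large as that of Ddit4. A dimmer probe of Csf1r, with a neighbouring spot that differed 2-fold, gave a difference of 0.09. The other 3 detected in both, Lyz2, Adgre1 and Aif1, had -0.24, 0.06 and -0.02. Ptprc was detected in clone 1 only and was 1.57-fold higher there, with -3.93 in clone 1 and -4.58 in clone 2. Cd68 was detected in clone 2 only, with -4.64 in clone 1 and -4.11 in clone 2. Both are dim. The part of other cell types in the differences described here was not tested.

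Transcripts of all 34 genes were detected in both clones, beside 61.1% of all named genes. None of the 34 differed by 2-fold. Among all measured genes 2.55% did so, 1.51% towards clone 2 and 1.04% towards clone 1. Ddit4 alone differed by 1.5-fold, and it was higher in clone 2. Among all measured genes 9.07% passed 1.5-fold, 5.75% towards clone 2 and 3.32% towards clone 1. The scanner software attaches an error to each spot, which for most of these genes comes to 0.20 log2 for a difference between the arrays. Ddit4 and Asns were higher in clone 2 by at least 2 such errors (background 10.5%), and Chac1 and Herpud1 were higher in clone 1 by as much (background 5.83%). In either direction these are 4 of the 34 genes, a share no larger than the 16.4% of all measured genes. That error covers the measurement only, so the 4 are described here by their size.

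**Figure D1:**
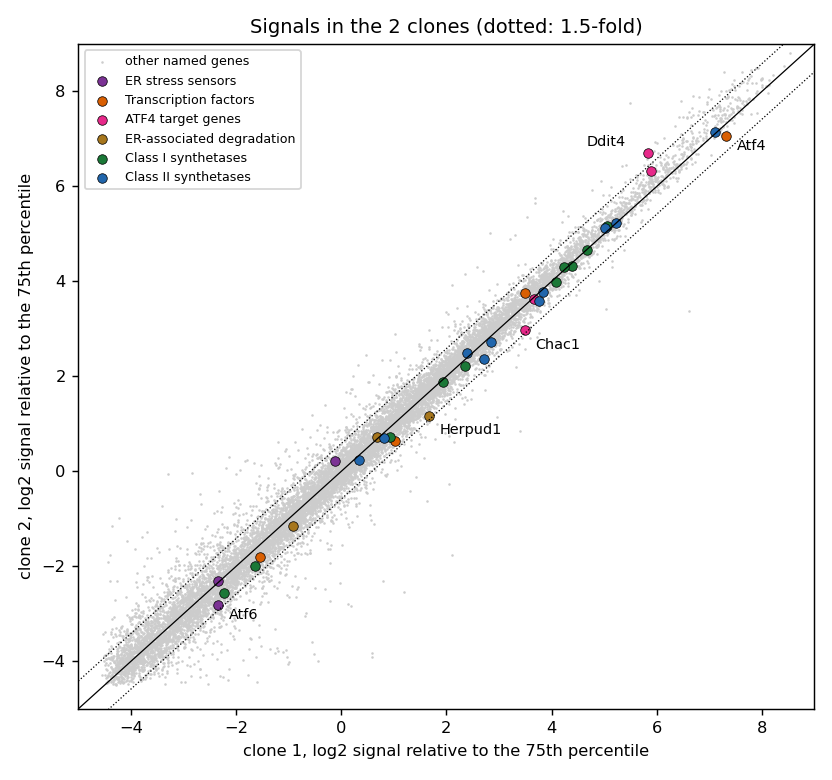
Log2 signal of each gene in clone 1 (horizontal axis) against clone 2 (vertical axis), relative to the 75th percentile of each array, with all measured genes in grey and the 34 genes in colour by role. The 34 genes lie close to the diagonal, and Ddit4 (5.84 and 6.70) is the only one of them past the 1.5-fold line.

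The genes that ATF4 switches on can carry in their promoters a C/EBP-ATF composite element, searched here on both strands as the letters TGATGNAA. RefSeq promoter windows on GRCm38.p6, which run from 250 bases before to 50 bases after the start of a gene, were at hand for 25 of the 34 genes. The letters were found in 10 of the 25 (40%), beside 4.51% of 27025 genes in the same table. They were found in 5 of 13 unfolded protein and ATF4 genes (38.5%) and in 5 of 12 synthetase genes (41.7%). A match is a description of the letters and not a binding site. In 7 genes a match lies before the start. The search fixes every letter of a match except the free one, so only that one can differ between genes. The stretches around these matches are printed here, 5′ to 3′ on the strand of the gene, with the match in capitals.
Chac1, chr2:119351019-119351063, plus strand: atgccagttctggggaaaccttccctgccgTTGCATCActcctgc
Asns, chr6:7693218-7693262, minus strand: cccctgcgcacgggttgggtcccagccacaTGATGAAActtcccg
Atf3, chr1:191183429-191183473, minus strand: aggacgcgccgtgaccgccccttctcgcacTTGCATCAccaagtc
Herpud1, chr8:94386287-94386331, plus strand: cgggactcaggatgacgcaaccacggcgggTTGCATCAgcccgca
Aars, chr8:111033700-111033744, plus strand: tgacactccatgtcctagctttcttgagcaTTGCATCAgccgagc
Gars, chr6:55037941-55037985, plus strand: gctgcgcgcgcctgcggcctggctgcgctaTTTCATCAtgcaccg
Tars, chr15:11399659-11399703, minus strand: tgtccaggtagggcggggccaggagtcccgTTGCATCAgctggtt

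The matches in Chac1, Atf3, Herpud1, Aars and Tars have the same 8 letters, TTGCATCA, which is the reverse complement of TGATGCAA. Those in Asns and Gars differ from it at the free position. Counted from the start of the gene, the match lies at -193 in Chac1, -110 in Atf3, -112 in Herpud1, -112 in Aars, -30 in Gars, -23 in Asns and -15 in Tars. In Trib3, Iars and Yars the only match lies after the start, at 15, 8 and 4. Neither of the ER stress elements searched was found in the 25 windows, the ERSE (CCAAT, 9 bases, CCACG; 0.137% of all genes) nor the UPRE (TGACGTGG; 0.714%). Herpud1 also holds the letters of the second ER stress element, ERSE-II (ATTGG, 1 base, CCACG), from -52 to -42, a search added after the data were seen. Those letters occur in 12 genes of the table (0.0444%). The Herpud1 promoter is shown for the 250 bases before the start, at chr8:94386179-94386428 on the plus strand, with the composite element and the ERSE-II letters in capitals.
Herpud1: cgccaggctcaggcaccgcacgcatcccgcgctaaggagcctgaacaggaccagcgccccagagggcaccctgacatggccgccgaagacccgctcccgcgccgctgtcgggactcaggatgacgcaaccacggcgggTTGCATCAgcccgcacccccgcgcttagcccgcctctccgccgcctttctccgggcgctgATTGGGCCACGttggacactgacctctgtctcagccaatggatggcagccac

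**Figure D2:**
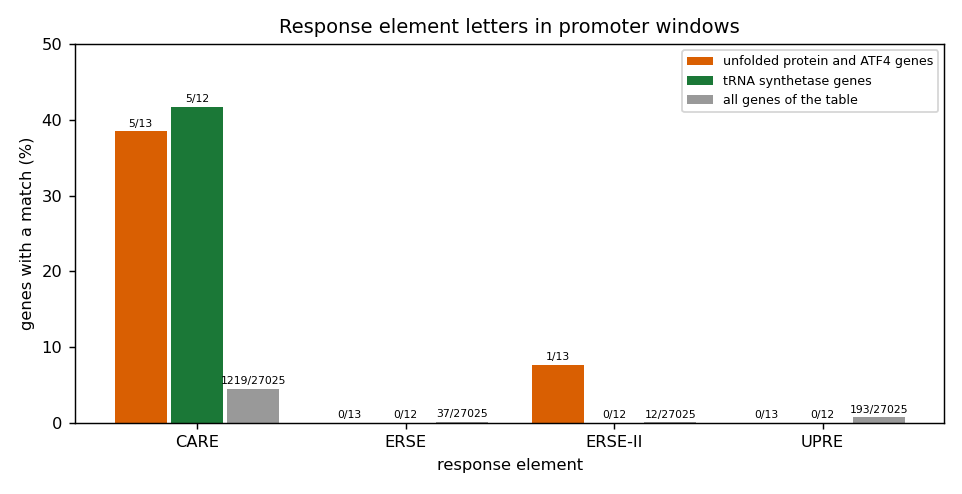
Share of genes whose promoter window holds the letters of each element (vertical axis, percent), for the composite element (CARE), ERSE, ERSE-II and UPRE (horizontal axis), in unfolded protein and ATF4 genes, synthetase genes and all genes of the RefSeq table, with the counts above the bars. The composite element reaches 38.5% and 41.7% in the 2 groups of members beside 4.51% of all genes, and the single ERSE-II match is that of Herpud1.

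The ER stress sensors were detected in both clones and had differences of both signs. Eif2ak3, which encodes PERK, stood at -0.11 in clone 1 and at 0.22 in clone 2, a difference of 0.33. Ern1, which encodes IRE1, the enzyme that splices Xbp1 mRNA, had -2.34 and -2.32. Atf6, a factor freed from the membrane by cleavage, had -2.35 and -2.80, which is 0.45 lower in clone 2. The Atf6 difference turned to 0.17 with normexp background correction, and its signals are dim in both clones. Ern1 moved from 0.02 to 0.28 in the same setting, in which all 3 sensors were higher in clone 2. Eif2ak3 was higher in clone 2 under every processing tried.

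Of the 4 transcription factors, 3 were higher in clone 1. Atf4 stood at 7.32 in clone 1 and at 7.07 in clone 2, a difference of -0.25. Ddit3, which encodes CHOP, a factor of stress-induced cell death, had -1.55 and -1.81. Atf3, a stress-induced partner of the ATF and AP-1 family, had 1.02 and 0.63 and thus a difference of -0.40. Xbp1, whose spliced form drives ER chaperone genes, was the exception with 3.50 in clone 1 and 3.75 in clone 2. Spliced and unspliced Xbp1 mRNA were not measured apart. The direction of these 4 differences was the same under every processing tried, but their sizes were not. Ddit3 came to -0.025 with normexp background correction, so that its difference nearly vanished. Atf4 came to -0.52 after quantile normalization and -0.53 in the authors' deposited table.

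Atf4 was read by 2 probes, of which the first 30 bases are given to show that they sample different places of 1 transcript. Both probes lie on chromosome 15 of mm9 on the plus strand, at 80087902-80087961 and 80086639-80086698.
Atf4, position 1655 of the transcript: ggtgctttgtgcttgtacatagtcttgtgt
Atf4, position 504 of the transcript: tcttcacgaaatccagcagcagtgttgctg

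The first of these probes is the brighter and gave the values above. The second gave 1.14 in clone 1 and 0.74 in clone 2, a difference of -0.40, with a neighbouring spot on the slide that differed 2-fold in the same direction. Both probes of Atf4 were therefore higher in clone 1, by 1.19-fold and 1.32-fold.

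The 4 ATF4 target genes held the largest difference of the set in each direction, Ddit4 towards clone 2 and Chac1 towards clone 1. Ddit4 encodes REDD1, an inhibitor of the growth kinase mTORC1 that is induced by ATF4, low oxygen and glucocorticoids. Its processed signal was 46838 in clone 1 and 75469 in clone 2, or 5.84 and 6.70 after scaling, which is 1.82-fold higher in clone 2. Chac1 encodes an enzyme that degrades glutathione and is a target of ATF4 and CHOP. Its processed signal was 9177 in clone 1 and 5679 in clone 2, or 3.49 and 2.97, which is 1.43-fold higher in clone 1. Ddit4 and Chac1 each differed by more than the spread of repeated spots. For that spread the median SD of a difference was 0.09, over 264 probes printed 10 times. That spread is within a slide and holds nothing of the spread between cultures.

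Asns encodes asparagine synthetase and had 5.90 in clone 1 and 6.33 in clone 2, which is 1.35-fold higher in clone 2. A spot next to that of Asns differed 2-fold in the same direction. Trib3, a pseudokinase that restrains ATF4 and CHOP, had 3.67 and 3.62, and its spot also had such a neighbour. Across all settings tried, Ddit4 stayed between 0.67 and 0.87 and Chac1 between -0.64 and -0.52. Asns lay between 0.24 and 0.44, and Trib3 between -0.26 and -0.04. The probes of the opposed pair are given by their first 30 bases, for Ddit4 at chr10:59412486-59412545 on the minus strand and for Chac1 at chr2:119179990-119180049 on the plus strand of mm9.
Ddit4: tgccacctgggtcttccatctagaacctgt
Chac1: actacagtccttgtccattctcagttgacc

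Of the genes of ER-associated degradation, which returns misfolded proteins to the cytosol for destruction, Herpud1 differed the most. Herpud1 encodes a membrane protein that assembles the degradation complex, and its processed signal was 2590 in clone 1 and 1638 in clone 2. After scaling these are 1.66 and 1.17, which is 1.40-fold higher in clone 1. Sel1l, the adaptor of the same complex, had -0.93 in clone 1 and -1.15 in clone 2. Edem1, which marks mannose-trimmed glycoproteins for removal, had 0.68 and 0.72, and its sign changed with the scaling. Over the settings Herpud1 lay between -0.56 and -0.44. Sel1l lay between -0.30 and -0.017, the latter with normexp background correction.

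**Figure D3:**
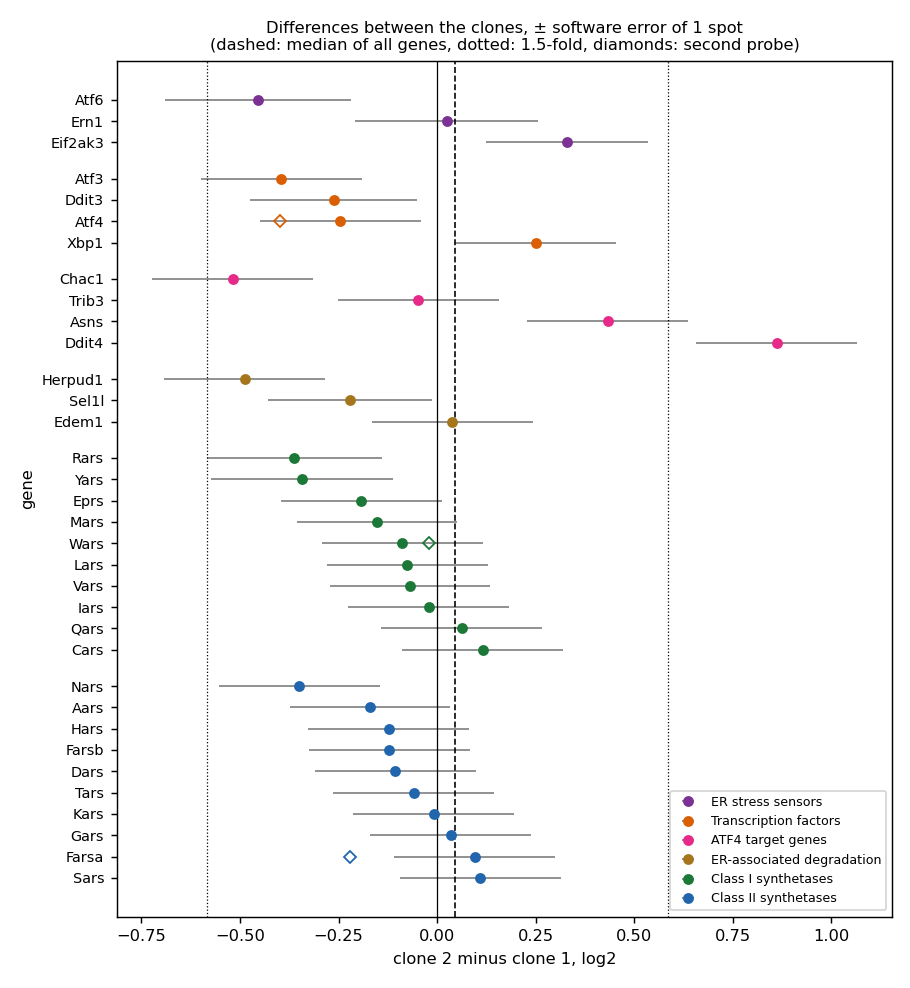
Difference between the clones (clone 2 minus clone 1, log2, horizontal axis) for each of the 34 genes (vertical axis) by role, with bars of 1 software error, a dashed line at the median of all genes, dotted lines at 1.5-fold and diamonds for a detected second probe. Ddit4 at 0.86 and Chac1 at -0.52 form the ends of the range, and 23 of the 34 genes lie below 0.

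Taking the 14 unfolded protein and ATF4 genes as a group, 8 were higher in clone 1 and 6 in clone 2. Their differences ran from -0.52 to 0.86 with a median of -0.13, beside a median of 0.05 over all measured genes. The median was below 0 under every processing tried, and came to -0.02 with normexp background correction.

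The 20 cytosolic synthetase genes differed little, and most of them leaned towards clone 1. Of the 20, 15 were higher in clone 1 (75%), beside 43.1% of all measured genes. Their differences ran from -0.36 to 0.12 with an SD of 0.14 and a median of -0.08. None reached 1.5-fold or 2 software errors. Class I and class II were alike in this, with 8 of 10 and 7 of 10 higher in clone 1 and a median of -0.08 in each.

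Among class I enzymes, Rars, the arginyl-tRNA synthetase, had -1.64 in clone 1 and -2.00 in clone 2, the difference of -0.36. Yars, which charges tyrosine, had -2.23 and -2.57. Both genes are dim, and with normexp background correction the Rars difference came to -0.017 and that of Yars turned to 0.07. Eprs, the fused enzyme for glutamate and proline, was counted under class I only. It had 0.92 and 0.73, and Mars, which charges methionine, had 2.36 and 2.21. The remaining enzymes lay closer to 0, with Wars (4.08 and 3.99), Lars (4.39 and 4.32), Vars (1.94 and 1.87), Iars (4.67 and 4.65) and Qars (4.24 and 4.30). Cars, which charges cysteine, had the largest difference towards clone 2, with 5.05 and 5.16. The spots of Cars and Qars each had a neighbouring spot that differed 2-fold in the same direction. Cars and Qars are the only class I genes higher in clone 2. Leaving out such spots drops both, so the 8 class I genes left are those already higher in clone 1.

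Among class II enzymes, Nars, the asparaginyl-tRNA synthetase, had 2.72 in clone 1 and 2.37 in clone 2, the difference of -0.35. Asns, which makes the asparagine that Nars uses, lay on the other side of 0. Aars, which charges alanine, had 3.77 and 3.60. Hars (0.82 and 0.69), Farsb (2.85 and 2.73), Dars (0.34 and 0.24) and Tars (3.85 and 3.79) were higher in clone 1 by between 0.06 and 0.12. Kars (5.23 in each) and Gars (7.12 and 7.15), which serve both the cytosol and mitochondria, were nearly level in this scaling. Gars came to -0.20 with normexp background correction, -0.23 after quantile normalization and -0.25 in the authors' deposited table, and Kars to -0.16 and -0.17 in the last pair. Sars (5.02 and 5.13) and Farsa (2.39 and 2.49) were higher in clone 2.

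Aars, Farsa and Wars had a second probe each. That of Farsa gave -0.14 in clone 1 and -0.36 in clone 2, so that the 2 probes of Farsa disagree in direction (0.10 and -0.22), and a spot beside the second one differed 2-fold. Phenylalanyl-tRNA synthetase is built from Farsa and Farsb, and Farsb was lower in clone 2 by 0.12. The second probe of Wars was level, with -0.37 and -0.39. The second probe of Aars stayed below the detection limit on both arrays (not well above background). The Aars probes are given by their first 30 bases, since they read 1 transcript at different positions and only the first was detected.
Aars, position 3496 of the transcript: atctaaatgaggtcactctgccagcctgag
Aars, position 4178 of the transcript: aacaacagatccgttccttaggactagcta

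The lean of the synthetases towards clone 1 changed in extent with the scaling and kept its direction. The number higher in clone 1 was 16 of 20 with normexp background correction, 17 with the 75th percentile taken over detected probes, and 19 both after quantile normalization and in the authors' deposited table. The median was -0.11, -0.16, -0.19 and -0.20 in the same order. Over all measured genes the share higher in clone 1 was 37.7%, 54.4%, 48.9% and 49.5% under these settings. In the setting used throughout it was 43.1%. The settings reprocess the same 2 arrays and are not independent checks. Taking the percentile over detected probes shifts every difference by the same amount. With either percentile, 16 of the 20 lay below the median of all genes. The deposited table lay close to quantile normalization, with Gars at -0.25 and -0.23. Genes whose sign changed under one or more settings were Cars, Dars, Farsa, Gars, Iars, Kars, Qars, Sars and Yars. The direction of a single one of these synthetases is therefore not settled. Aars, Eprs, Farsb, Hars, Lars, Mars, Nars, Rars, Tars, Vars and Wars were higher in clone 1 under every setting. Rars was so by as little as 0.017 with normexp. With 1 array per clone, a sign kept under every setting does not settle the direction either. Tars, Vars, Lars and Wars (-0.06, -0.07, -0.08 and -0.09 in the setting used throughout) differed by less than 1 software error.

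**Figure D4:**
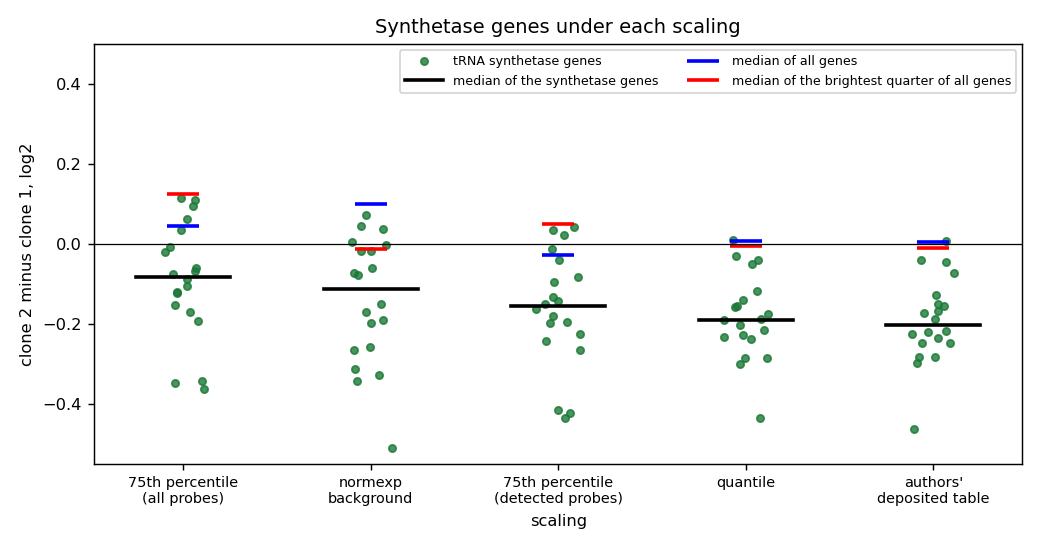
Difference between the clones (clone 2 minus clone 1, log2, vertical axis) of the 20 synthetase genes (points) under 5 scalings (horizontal axis), with the median of the synthetases in black, of all measured genes in blue and of the brightest 25% of genes in red. The black median is below the blue and the red one under each scaling, at -0.08 in the leftmost column and -0.20 in the rightmost.

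In the setting used throughout, the difference between the arrays also varied with brightness. In the brightest 25% of genes the median difference was 0.12, and in the dimmest 25% it was -0.01. Of the 34 genes, 20 fell in the brightest 25%, and 17 of these lay below its median of 0.12. In the dimmest 25% the set had 3 genes, of which 2 lay below the median. All 20 synthetases, bright or dim, had differences below the median of the brightest 25%. Below the lower median of all genes (0.05) lay 16 of the 20. The trend with brightness depends on the processing. With normexp the median of the brightest 25% was -0.014, below the 0.10 of all genes, and 15 of the 20 synthetases lay below it. After quantile normalization the medians were -0.0045 and 0.0064, and 19 of the 20 lay below the former. This comparison was chosen after the values were seen, and the part of signal strength in the differences was not tested.

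The genes with the letters of the composite element were set beside those without. In the setting used throughout, 8 of the 10 genes with the letters were higher in clone 1. The median of the 10 was -0.12, with a range from -0.52 for Chac1 to 0.43 for Asns. Of the 15 genes with a window and no match, 7 were higher in clone 1, with a median of 0.02. Ddit4 is among the latter. These counts change with the processing. Of the genes with the letters, Gars, Iars and Yars changed sign under one or more other settings. Of those without, Ern1, Edem1, Dars, Farsa, Kars, Qars and Sars did so. A link between the letters and the direction was not tested. Over all measured genes, 113 of 248 with a match were higher in clone 1 (45.6%), beside 43.0% without, and their medians were 0.03 and 0.05.

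Neighbouring pathways were described from further lists of genes. Of the amino acid genes downstream of ATF4, 14 of 19 measured were higher in clone 1 (73.7%, beside 43.1% of all measured genes), with a median of -0.19. That list also holds genes of other roles, such as Cebpb, Gdf15 and Fgf21. The number was also 14 under each of the other 4 scalings, where the share of all genes ran from 37.7% to 54.4%. The serine and glycine enzymes Psph and Shmt2, the proline enzyme Pycr1 and the transporter subunits Slc7a5 and Slc3a2 had differences of -0.36, -0.34, -0.47, -0.38 and -0.29, and Pycr1 ran from -0.55 to -0.10 over the settings. The serine enzyme Psat1 and the transcription factor Cebpb went the other way, with 0.21 and 0.44. The hormones Gdf15 and Fgf21, which stressed cells secrete, were higher in clone 2. Gdf15 had -1.25 in clone 1 and -0.63 in clone 2 (1.53-fold higher in clone 2, with a neighbouring spot that differed 2-fold), and Fgf21 had -2.44 and -1.81 (1.55-fold). The cystine transporter gene Slc7a11 was not detected in either clone.

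Of the ER chaperone and folding genes, 8 of 14 were higher in clone 1 with a median of -0.02, and the other scalings gave more. Hspa5, which encodes the chief ER chaperone BiP, had 5.15 in clone 1 and 5.34 in clone 2. The count higher in clone 1 was 10 with normexp (median -0.13) and 11 each with the percentile over detected probes (-0.09), after quantile normalization (-0.14) and in the authors' deposited table (-0.14). Of the other genes of ER degradation, 2 of 7 were higher in clone 1, with a median of 0.09. This count was 2 with normexp (median 0.13) and 3 with the percentile over detected probes (0.018). It was 4 after quantile normalization (-0.002) and 3 in the authors' deposited table (0.005). The list of eIF2 kinases and phosphatase subunits also holds Eif2s1, which encodes a subunit of eIF2 itself. The list was mixed, with 3 of 6 higher in clone 1 under each of the other scalings and 2 of 6 in the setting used throughout. One of these, Eif2ak2, which encodes the kinase PKR that senses double-stranded RNA, had -1.27 and -1.87 and was 1.51-fold higher in clone 1, with a range of -0.67 to -0.31 over the settings.

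The mitochondrial synthetases listed here are encoded by separate genes, whereas Kars and Gars serve both compartments and are in the cytosolic list. Of 16 measured, 7 were higher in clone 1 (43.8%, close to the 43.1% of all measured genes), with a median of 0.09, and 5 to 7 were so under the 5 scalings. Wars2, which charges mitochondrial tryptophan tRNA, had -2.29 and -2.82, a difference of -0.54 that ran from -0.61 to -0.027 over the settings, and Nars2 was not detected in either clone. Of the scaffold genes of the multisynthetase complex, which binds several cytosolic synthetases together, Aimp2 differed by 0.42 (0.19 to 0.42 over the settings), while Aimp1 and Eef1e1 had -0.01 and -0.07. Only Eef1e1 is left without spots whose neighbour differed 2-fold. The difference between the cytosolic and the mitochondrial list was not tested.

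**Figure D5:**
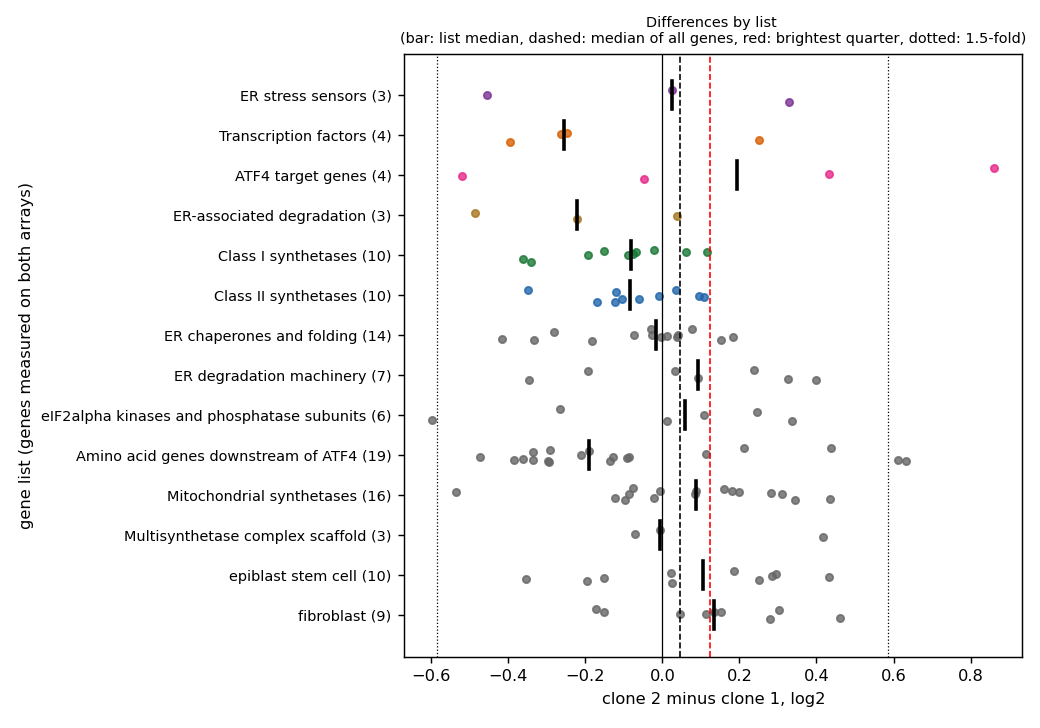
Difference between the clones (clone 2 minus clone 1, log2, horizontal axis) of each gene (points) in each list (vertical axis, with the number measured), with bars at the list medians, a dashed line at the median of all genes (0.05), a red line at that of the brightest 25% (0.12) and dotted lines at 1.5-fold. Both synthetase classes (-0.08 and -0.08) and the list labelled amino acid genes (-0.19) have medians below 0. That list also holds genes of other roles. The mitochondrial synthetases have a median of 0.09.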

How the data were processed

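Total RNA of EpiSC clone 1 and clone 2 was labelled with Cy3 and hybridised to 1 array each. Per the file headers, the intensities were read with Agilent Feature Extraction 11.0.1.1 (array design 026655), which subtracts background, flags outlier spots and gives each spot an error with a multiplicative part of 10%. The detection and outlier flags (0 or 1 for each spot) were used as deposited. The authors' deposited table of normalized intensities served as an alternative only. Its normalization method is not given in the sources at hand.

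Spots of the same probe were averaged as log2 processed signal, and each array's 75th percentile was then subtracted (819 in clone 1, 726 in clone 2). Detection of a probe required the software's flag for a signal well above background on 50% or more of its spots. Outlier-flagged spots were left out (277 and 246 spots). A gene takes the value of its brightest probe, and 13965 genes whose probe was detected on both arrays were compared. Levels of different probes were not compared, apart from the summed signals of marker lists. Gene names of the files were matched to RefSeq genes of GRCm38.p6 for 22881 of 31736 names. Probe positions are those of the files, on mm9. Of the 38 probes, 7 span introns, and exon or UTR annotation was not used here. Promoter windows come from RefSeq on GRCm38.p6.

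With 1 array per clone no p-value was computed, and the number of arrays limits the precision. Counts past 1.5-fold and 2-fold were set beside the share over all measured genes. The counting of folds was tested on simulated data. Python 3.11.15, R 4.3.3 and limma 3.58.1 (normexp, offset 50) were used. All 34 members are named, and of the other lists the genes at least 1.5-fold apart or undetected on both arrays. Other genes named were chosen after their values were seen. The members and the lists were chosen with earlier results of these data known.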

Additional observations from a re-analysis of the deposited data

How the results depend on the processing

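No paired analysis was possible because each clone has 1 array, and for the same reason no slide could be a block and no replicate could be left out. All 34 genes were detected on both arrays under each detection setting tried, and none reached 2-fold under any. With normexp background correction, the 75th percentile over detected probes, quantile normalization or the authors' deposited table, Chac1 joined Ddit4 past 1.5-fold, so that the count was 2. The median of the unfolded protein and ATF4 genes was -0.021 with normexp and -0.23 without probes whose neighbouring spots differed 2-fold, a setting that leaves 30 of the 34 genes. The median of the synthetases was -0.19 after quantile normalization and -0.20 in the authors' deposited table. The cause was not tested. Of 34 genes, 22 kept their sign under every setting, 18 of them higher in clone 1 and 4 higher in clone 2. Of all genes past 1.5-fold, 63.4% were higher in clone 2, beside 85.0% with normexp and 50% with the percentile over detected probes. Dim signals limit Ern1, Atf6, Ddit3, Rars and Yars, for which the software error is between 0.21 and 0.24.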

Other observations

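Within 200 kb of the probes of the 34 genes, 237 pairs of a member and another measured gene were found on mm9, of which 7 (2.95%) involved a neighbour at least 2-fold apart between the clones, close to the 2.55% of all measured genes. Of these, 3 lie beside Cars on chromosome 7. The imprinted genes Cdkn1c, an inhibitor of the cell cycle, and Phlda2, a regulator of placental growth, were 3.91-fold and 3.10-fold higher in clone 2, and Tnfrsf22 was 2.39-fold higher. Their probes lie 98803, 56092 and 82999 bases from that of Cars, which differed by 0.12. The spots of Cdkn1c and Phlda2 each had a neighbouring spot that differed 2-fold in the same direction. Over the settings tried, Cdkn1c lay between 1.73 and 1.97 log2, Phlda2 between 1.35 and 1.68, and Tnfrsf22 between 0.79 and 1.32.

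The probe of Yars at chr4:128896792-128896851 on the plus strand overlaps that of C77080 at chr4:128896836-128896895 on the minus strand (mm9). C77080 had 2.30 in clone 1 and 3.17 in clone 2 and was 1.82-fold higher in clone 2, while Yars was higher in clone 1 by 0.34 in the setting used throughout. The probes of Ddit3 and Mars lie 1119 bases apart on chromosome 10, and both genes were higher in clone 1, by 0.26 and 0.15.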
